A study of Homo sapiens with 16 samples.

Results

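The genes described here act in protein folding in the endoplasmic reticulum (ER) and in the disposal of proteins that fail to fold (ER-associated degradation, ERAD). They were chosen by symbol, and all 8 of 8 were found: PDIA6, DNAJC10, ERO1LB, TXNDC12, SEP15, UGGT1, EDEM1 and EDEM3. All 8 had ribosome-protected fragments (RPFs) counted by Ribo-Seq, and 7 were among the 19044 transcripts that could be joined between Ribo-Seq and mRNA-Seq. All 8 passed the filter on low counts in Ribo-Seq and the 7 joined genes passed it in both assays. The mRNA and the translational efficiency of SEP15 were not analysed here, because its transcript identifier had no counterpart among the mRNA-Seq rows used.

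The cells were HEK293T, an established human embryonic kidney line, and 4 treatments were compared. Cells were left untreated, were given 1 µg/ml tunicamycin (Tm) for 1 hr, were given Tm together with 200 nM ISRIB for 1 hr, or were given 200 nM ISRIB alone for 1 hr. Tm blocks N-linked glycosylation in the ER, and ISRIB is a small molecule that makes translation insensitive to phosphorylation of the initiation factor eIF2α. Each treatment had 2 biological replicates (a and b), and every lysate was divided between the assays, which gave 16 libraries of cells that all received cycloheximide before lysis. No cell type markers were checked.

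Secretory and membrane proteins enter the ER lumen unfolded. Protein disulfide isomerases such as PDIA6 form and rearrange their disulfide bonds, and are themselves reoxidised by ERO1 oxidases such as ERO1LB. Glycoproteins pass through a cycle in which UGGT1 adds a glucose back to molecules that are not yet folded, so that lectin chaperones bind them again. Those that never fold lose mannose residues through EDEM proteins, are reduced by DNAJC10 (ERdj5), and leave for the proteasome in the cytosol. When unfolded proteins build up, the unfolded protein response lowers initiation through eIF2α at once, and raises transcription of ER chaperones and ERAD genes later, through ATF6 and XBP1. The samples were taken at an early time of that response, and the comparisons ask which mRNAs gain or lose ribosomes with Tm and how ISRIB alters that.

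Because ATF6 and XBP1 act through short promoter elements, the 300 bases around the transcription start of these genes (RefSeq, GRCh38.p14, 250 before to 50 after the start) were searched on both strands for the ER stress response element, CCAAT followed after 9 bases of any kind by CCACG, and for TGACGTG, the core of the unfolded protein response element. The 8 genes have 11 promoters. The first was found in 2 of the 8 genes, PDIA6 and ERO1LB (2 of 11 promoters), and in 27 of 35116 promoters of all genes (0.0769%). The core was found in 1 of the 8, DNAJC10 (1 of 11 promoters), and in 692 of all promoters (1.97%). The elements can share the letters CACG, but the 3 matches lie in different promoters. The matches follow with the matching letters in capitals, in the direction of the gene. In PDIA6 the element runs with the gene and begins at base -86 from the start (chr2:10812853-10812871, minus strand). In ERO1LB it runs against the gene from base -243 (chr1:236282183-236282201, minus strand), and in DNAJC10 the core runs against the gene from base -124 (chr2:182716133-182716139, plus strand).
PDIA6 promoter: cggaCCAATgagccgcagCCACGgctt
ERO1LB promoter: cccgCGTGGtcccgcctcATTGGccgc
DNAJC10 promoter: ccgcCACGTCAacct

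SEP15 (current symbol SELENOF) is a selenoprotein that binds UGGT1. Its reading frame holds a UGA that is read as selenocysteine, codon 96 of the coding sequence (GRCh38, chr1:86880690-86880692, minus strand), shown in capitals as DNA because ribosomes must pass it to be counted further along the transcript.
SEP15 selenocysteine codon: gaagtttgtggaTGAaaattgggaagg

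The start codons of the genes with the 2 highest and the 2 lowest ribosome densities per mRNA in untreated cells are shown next. Each is given as 17 bases with the ATG in capitals (GENCODE v29). All 8 genes have a purine at base -3 from the ATG, A in 4 and G in 4, and 5 of 8 have a G at base 4. The annotated 5′ UTRs run from 23 nt in SEP15 to 1075 nt in TXNDC12. PDIA6, ERO1LB, SEP15 and UGGT1 have no upstream ATG in their 5′ UTR, EDEM1 and EDEM3 have 1 each, TXNDC12 has 4 and DNAJC10 has 7.
TXNDC12 start: acctactgccATGgaga
PDIA6 start: ggcgctcggcATGgctc
DNAJC10 start: aagaaagagaATGggag
EDEM1 start: ccgcgcgaccATGcaat

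Levels are CPM, that is counts over the library total corrected by its TMM factor, which places each library relative to its other transcripts, so a change of all mRNAs together cannot be seen. Depth on the joined transcripts was 3001612 to 11469150 counts per Ribo-Seq library and 8466193 to 24499266 per mRNA-Seq library. The members had 30 to 3999 RPF counts and 146 to 10023 mRNA counts per library, and EDEM1 was the shallowest in RPFs. Changes are log2 fold changes ± SE from edgeR's quasi-likelihood test over all transcripts, called at a Benjamini-Hochberg adjusted p below 0.1. An exact permutation test of 2 libraries against 2 cannot go below p = 0.333, so no test of single values is given. ATF4, whose translation rises when eIF2α is phosphorylated, shows the response in these libraries: it had 81.7 and 61.6 RPF CPM untreated, 455.4 and 463.6 with Tm, and 53.7 and 66.3 with Tm and ISRIB.

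In untreated cells the genes spanned a wide range of levels. Per 1000 counted codons, SEP15 had 855 ± 61.0 RPF CPM (SD, n = 2 here and for the levels and efficiencies that follow) and PDIA6 had 805 ± 62.4, which did not differ beyond their spread. TXNDC12, a small thioredoxin-like oxidoreductase, followed with 477 ± 48.1. DNAJC10 with 68.1 ± 4.34 and UGGT1 with 66.0 ± 9.09 could not be told apart. The oxidase ERO1LB had 30.4 ± 1.07 and EDEM3 had 28.2 ± 1.67, and EDEM1 was lowest with 16.1 ± 3.33, 53.1-fold below SEP15. The range among mRNA levels per 1000 codons was 23.0-fold, from 42.2 ± 3.99 CPM in ERO1LB to 969 ± 46.2 in PDIA6. The mRNA of DNAJC10 was second at 326 ± 9.35, above TXNDC12 with 191 ± 21.4 and UGGT1 with 157 ± 3.32.

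The ratio of RPF to mRNA CPM in the same lysate measures ribosome density per mRNA, given here as log2 of that ratio with the median of the 10970 tested transcripts set to 0 in each lysate. TXNDC12 was at 1.30 and 1.27 in the untreated replicates a and b, 2.44-fold above the median transcript and at percentile 85.7. PDIA6 was at -0.33 and -0.27, and ERO1LB at -0.44 and -0.57. Both genes sat below the median transcript, and their values did not overlap. UGGT1 was at -1.12 and -1.45, near percentile 13.5. EDEM3 was at -2.03 and -1.96, DNAJC10 at -2.20 and -2.39, and EDEM1 at -2.21 and -2.79. These 3 genes were at mean percentiles of 4.91, 3.20 and 2.58 of the transcripts tested. Further degradation genes, counted among the pathway genes at the end, ran from percentile 4.91 to 77.5, and further folding genes from 3.59 to 83.9. DNAJC10 and EDEM1 overlapped, and EDEM3 lay above both DNAJC10 values. From TXNDC12 to EDEM1 the efficiency differed 13.8-fold.

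**Figure D1:**
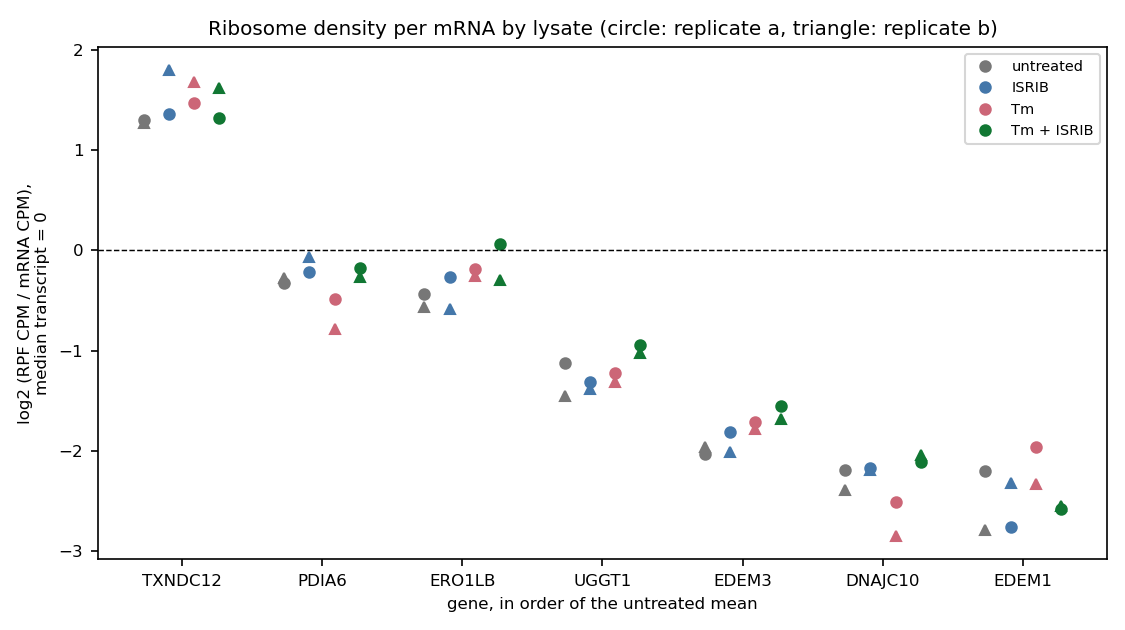
Ribosome density per mRNA (log2 of RPF CPM over mRNA CPM, median transcript at 0) for 7 genes in order of their untreated mean; each point is 1 lysate, coloured by treatment. TXNDC12 lies above the median transcript in all 8 lysates, and EDEM1 or DNAJC10 is lowest in each of them.

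The top of the order was the same in every lysate, and the bottom was not. TXNDC12 had the highest efficiency of the 7 in 8 of 8 lysates. EDEM1 had the lowest in 6 of them and DNAJC10 in the 2 lysates with Tm alone. ERO1LB was above the median transcript in 1 lysate, and PDIA6, UGGT1, EDEM3, DNAJC10 and EDEM1 in 0 of 8. In this order, from TXNDC12 through PDIA6, ERO1LB, UGGT1, EDEM3 and DNAJC10 to EDEM1, the genes have 4, 0, 0, 0, 1, 7 and 1 upstream ATGs, and the part of these in the order was not tested.

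With Tm, the footprints of the disulfide isomerase PDIA6 and of the ERAD reductase DNAJC10 fell and those of SEP15 rose, by 0.25 to 0.36 on the log2 scale in size, while the remaining 5 genes did not pass the test. This made 3 of 8 members called, where 13.5% of the transcripts tested with both assays were called and 12.9% of those tested in Ribo-Seq alone, the fit used for SEP15. By direction, 2 of 8 fell against a background of 7.21%, and 1 rose against 6.33%, or 6.11% in Ribo-Seq alone. The median change of the 8 was 0.06, and that of all transcripts was -0.01.

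PDIA6 had 320.2 and 357.4 RPF CPM in the untreated replicates, 347.7 and 348.1 with ISRIB, 302.6 and 254.2 with Tm, and 387.1 and 350.0 with Tm and ISRIB. Both Tm libraries lay below the other 6. The change with Tm was -0.28 ± 0.08 (adjusted p = 0.029). DNAJC10 had 55.1 and 50.3 RPF CPM untreated, 56.0 and 52.8 with ISRIB, 45.8 and 35.0 with Tm, and 60.8 and 61.9 with Tm and ISRIB. The Tm libraries were again the lowest, with replicate b below replicate a, and the libraries with both compounds were the highest. Its change with Tm was -0.36 ± 0.12 (adjusted p = 0.061).

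SEP15 had 85.2 and 94.3 RPF CPM untreated, 83.3 and 78.1 with ISRIB, 113.3 and 99.97 with Tm, and 90.0 and 89.3 with both. The Tm libraries were the highest of the 8, the opposite of PDIA6 and DNAJC10. Its change with Tm was 0.25 ± 0.09 (adjusted p = 0.097). Among the Ribo-Seq libraries, Tm replicate b was the shallowest, with 3001612 counts on the joined transcripts beside 4172745 in Tm replicate a. Of the other analyses, PDIA6 stayed called in 10 of 12, DNAJC10 in 8 of 12 and SEP15 in 4 of 11. Without Tm replicate b, none of the 3 was called: PDIA6 was at -0.16 (adjusted p = 0.40), DNAJC10 at -0.20 (0.50) and SEP15 at 0.33 (0.11). Leaving out an untreated replicate also ended calls, with PDIA6 at -0.19 (0.19) without replicate b, and DNAJC10 at -0.29 (0.17) and SEP15 at 0.18 (0.29) without replicate a. Without Tm replicate a, SEP15 was at 0.15 (0.57).

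**Figure D2:**
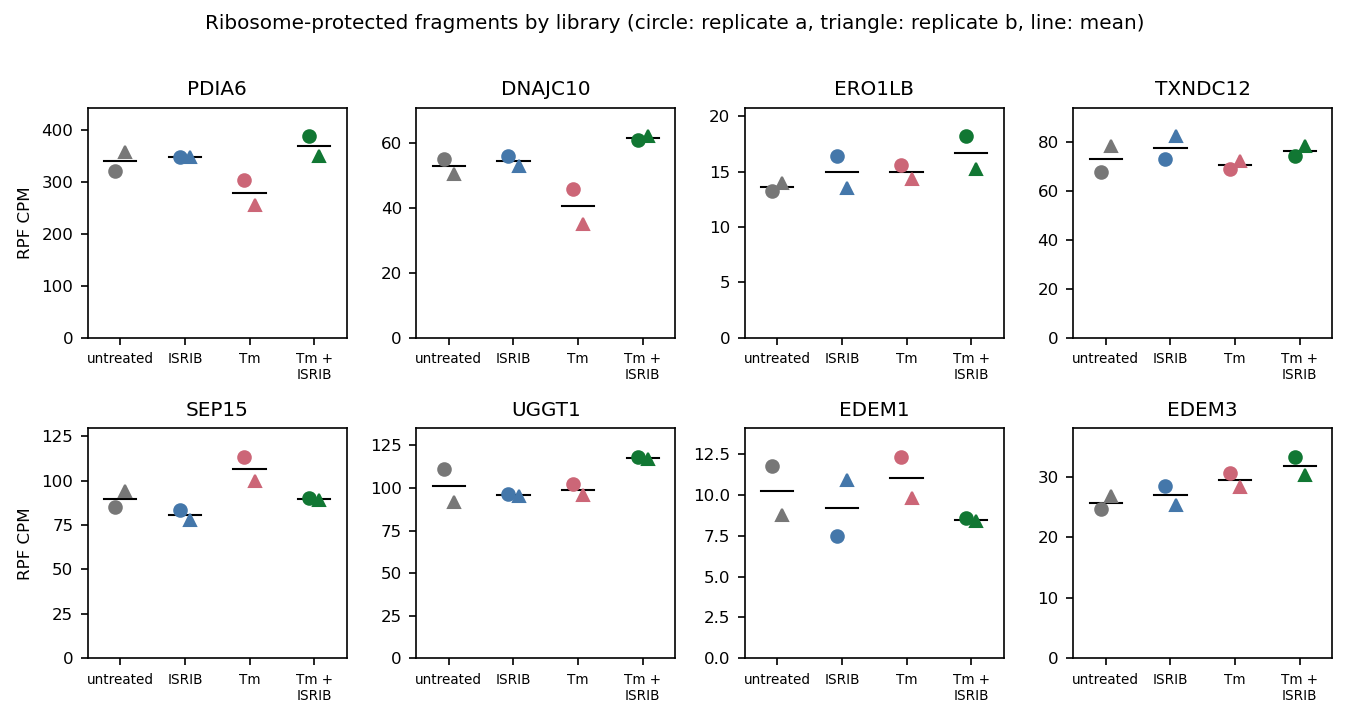
RPF CPM of the 8 genes in each Ribo-Seq library by treatment; circles are replicate a, triangles replicate b, and lines the mean of the 2, with every axis starting at 0. For PDIA6 and DNAJC10 the Tm libraries are the lowest of the 8, and for SEP15 they are the highest.

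The other 5 genes moved less relative to their error. UGGT1 had 111.3 and 91.5 RPF CPM untreated and 102.1 and 95.7 with Tm, values that overlapped, a change of -0.03 (95% interval -0.22 to 0.17). TXNDC12 had 67.7 and 78.1 untreated and 68.8 and 72.2 with Tm, a change of -0.06 (-0.27 to 0.15). For these 2 genes the interval leaves out a change as large as the fitted one of DNAJC10. The intervals of the shallower genes do not leave out a rise of that size: ERO1LB changed by 0.14 (-0.23 to 0.51), EDEM3 by 0.20 (-0.08 to 0.48) and EDEM1 by 0.15 (-0.31 to 0.61). EDEM3 had 24.7 and 26.8 RPF CPM untreated and 30.7 and 28.4 with Tm, which did not overlap, and EDEM1 had 11.8 and 8.8 untreated and 12.3 and 9.8 with Tm, which did.

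Adding ISRIB to Tm was followed by changes in the opposite direction for the same 3 genes. Against Tm alone, DNAJC10 rose by 0.58 ± 0.12 (adjusted p = 0.0019), a 1.5-fold difference, and PDIA6 by 0.40 ± 0.08 (adjusted p = 0.0015), 1.32-fold. SEP15 fell by 0.26 ± 0.10 (adjusted p = 0.084). This comparison uses the same Tm libraries as Tm against untreated, so the directions are not independent of each other. It called 3 of 8 members, 2 upwards and 1 downwards, against 17.7% of all transcripts, 9.53% upwards (for SEP15, 17.4% in Ribo-Seq alone and 8.17% downwards). The calls of DNAJC10 and PDIA6 were kept in 12 of 12 other ways of analysing the counts, whereas SEP15 was called in 7 of 11 and stood at -0.16 (adjusted p = 0.51) without Tm replicate a.

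UGGT1, the folding sensor, had 118.1 and 116.8 RPF CPM with Tm and ISRIB, above the other 6 libraries, and differed from Tm alone by 0.24 ± 0.10 (adjusted p = 0.105), and it was called with a minimum of 50 counts (0.094), with a replicate block (0.090) and with only the groups compared (0.059). EDEM1 was 8.6 and 8.4 with both compounds, below the 12.3 and 9.8 with Tm, a difference of -0.40 ± 0.25 (adjusted p = 0.31) that rests on 30 to 54 counts per library. ERO1LB with 18.2 and 15.2, EDEM3 with 33.3 and 30.3 and TXNDC12 with 74.2 and 78.2 differed from Tm alone by 0.15, 0.10 and 0.12, with adjusted p of 0.67, 0.72 and 0.53. The median over the 8 genes was 0.13, beside 0.00 for all transcripts.

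With Tm and ISRIB against untreated cells, 0 of 8 members were called in RPFs, where 2.65% of all transcripts were. At an unadjusted p below 0.05 there were 3, a rule for which the share of all transcripts was not counted here or below. DESeq2 called 0 of the 8, and 84 of 10970 transcripts tested with both assays. The largest values were 0.30 ± 0.12 for EDEM3 (adjusted p = 0.28), 0.29 ± 0.16 for ERO1LB (0.45) and -0.25 ± 0.21 for EDEM1 (0.67). UGGT1 was at 0.22 ± 0.09 (0.27), and at 0.36 without untreated replicate a, the higher of its untreated libraries. PDIA6 was at 0.12 (95% interval -0.04 to 0.28) and SEP15 at -0.01 (-0.19 to 0.18). ISRIB alone gave 0 of 8 calls, where 0.0182% of all transcripts were called, and 0 by DESeq2, where 2 of 10970 were. It gave 0 at an unadjusted p below 0.05. Its RPF changes ran from -0.16 in SEP15 (95% interval -0.35 to 0.03) to 0.12 in ERO1LB (-0.23 to 0.46). ERO1LB had 16.4 and 13.5 RPF CPM with ISRIB, EDEM3 28.5 and 25.4, EDEM1 7.5 and 10.9, TXNDC12 72.9 and 82.2, and UGGT1 96.3 and 95.6, and each range overlapped with that of the untreated libraries.

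The difference between the Tm effect with ISRIB and the Tm effect without it was also fitted. It uses the same Tm libraries as the comparisons above, so it is not independent of them. It was called for 2 of 8 members in RPFs, where 6.9% of transcripts were called. DNAJC10 was at 0.53 ± 0.16 (adjusted p = 0.063) and PDIA6 at 0.36 ± 0.11 (adjusted p = 0.070). UGGT1 was at 0.32 ± 0.14 (adjusted p = 0.20), and SEP15, for which Tm and Tm with ISRIB differed, was at -0.10 (95% interval -0.37 to 0.18). In efficiency it was called for 0 of 7 members, where 1.39% of transcripts were called. At an unadjusted p below 0.05 in edgeR there was 1 (DNAJC10). DESeq2 called 0 of the 7, and 156 of 10970 transcripts.

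Levels of mRNA spanned a narrower range than footprints for PDIA6 and DNAJC10, and also for UGGT1, ERO1LB, EDEM1 and EDEM3. By highest-to-lowest ratio over 8 libraries, the latter genes were at 1.29, 1.37, 1.64 and 1.35 in RPFs. In mRNA their ratios were 1.1, 1.19, 1.26 and 1.07. TXNDC12 went the other way, at 1.21 in RPFs and 1.43 in mRNA. Such ratios also widen at low counts. The members had 30 to 3999 RPF counts per library beside 146 to 10023 in mRNA, and the part of depth in the ratios was not tested. The mRNA of DNAJC10 was 247.5 and 257.7 CPM untreated, 247.6 and 235.6 with ISRIB, 254.9 and 246.5 with Tm, and 257.6 and 248.7 with both, a highest-to-lowest ratio of 1.09 over 8 libraries, beside 1.77 in RPFs. PDIA6 had 394.3 and 421.8 mRNA CPM untreated, 395.8 and 357.2 with ISRIB, 415.0 and 428.5 with Tm, and 427.3 and 412.6 with both, a ratio of 1.2 beside 1.52 in RPFs. The intervals of their changes with Tm were -0.15 to 0.13 for DNAJC10 and -0.11 to 0.21 for PDIA6.

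**Figure D3:**
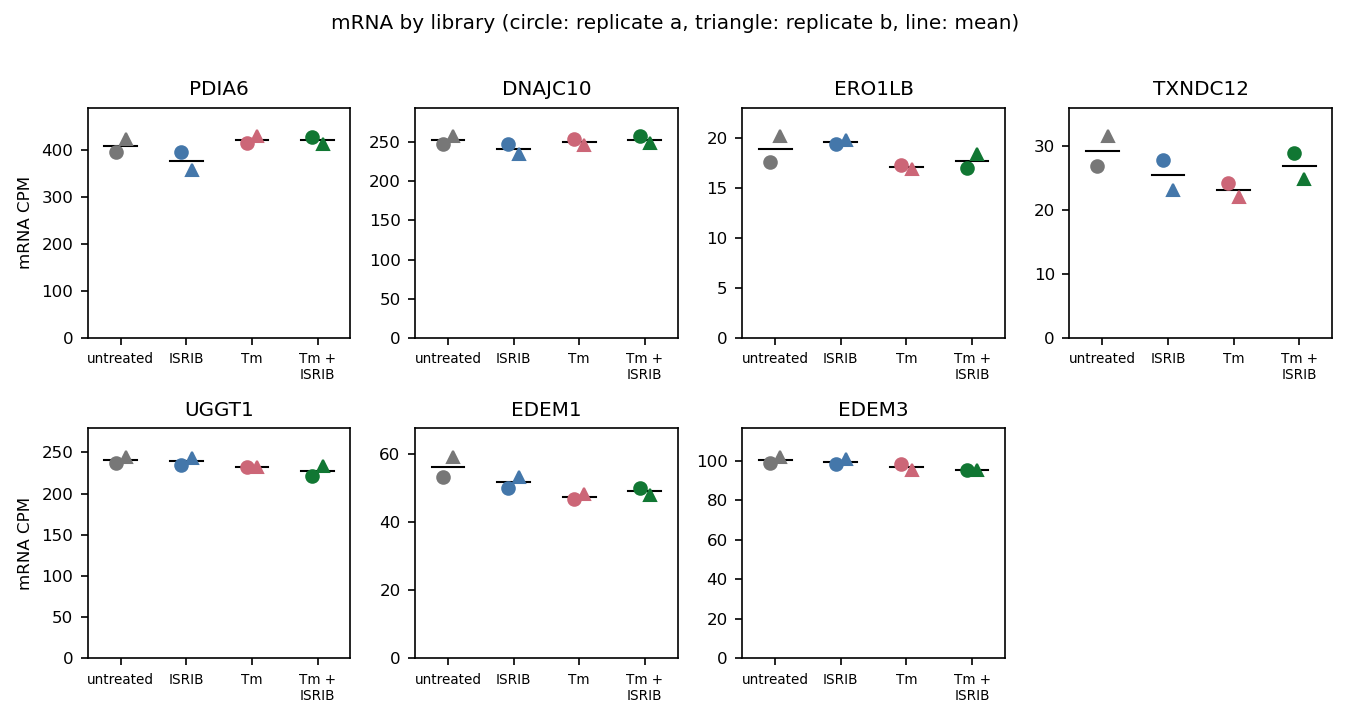
mRNA CPM of 7 genes in each mRNA-Seq library by treatment; circles are replicate a, triangles replicate b, and lines the mean of the 2, with every axis starting at 0. EDEM1 ranges from 46.9, in a Tm library, to 59.2, in an untreated library, and its untreated libraries overlap with those of ISRIB alone. Its libraries with Tm and ISRIB and with ISRIB alone meet at 50.1, and DNAJC10 stays between 235.6 and 257.7.

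In mRNA, 0 of 7 members were called with Tm against untreated (background 11%), 0 with Tm and ISRIB against untreated (14.2%), 0 with ISRIB (1.15%) and 0 with Tm and ISRIB against Tm (0%). At an unadjusted p below 0.05 there were 2, 1, 0 and 0. DESeq2 called 0 in each, where it called 694, 776, 145 and 0 of 10970 transcripts. TXNDC12 had 26.9 and 31.6 mRNA CPM untreated, 24.3 and 22.1 with Tm, 29.02 and 24.9 with both, and 27.8 and 23.2 with ISRIB. The Tm libraries were below the untreated ones, a difference of -0.34 ± 0.13 (adjusted p = 0.15). EDEM1, which delivers misfolded glycoproteins to ERAD, had 53.2 and 59.2 untreated, 46.9 and 48.2 with Tm, 50.1 and 48.1 with both, and 50.1 and 53.4 with ISRIB. Its change with Tm was -0.24 ± 0.08 (adjusted p = 0.11). Fitted on the untreated and Tm libraries alone, both were called, TXNDC12 at -0.33 (adjusted p = 0.033) and EDEM1 at -0.23 (0.048), in a fit that called 3152 transcripts where the fit over all 4 treatments called 1209.

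Since ISRIB changed few mRNAs, the 4 libraries with Tm were also set against the 4 without. EDEM1 was then lower by -0.16 ± 0.06 (adjusted p = 0.095), the 1 call among 7 members, where 22.4% of all transcripts were called. This call was kept in 5 of 14 other analyses, and it was lost without replicate a or b of the untreated cells, of Tm and of Tm with ISRIB, and without ISRIB replicate b, at adjusted p between 0.12 and 0.27. The mRNA-Seq replicates of ISRIB, which enter this comparison, stood further apart than those of any other group (chi-square per degree of freedom 12.1, beside 2.14 to 5.48), and without ISRIB replicate a the mRNA of PDIA6 was also called, at 0.15 (adjusted p = 0.018). ERO1LB had 17.6 and 20.2 mRNA CPM untreated, 19.4 and 19.8 with ISRIB, 17.3 and 16.9 with Tm, and 17.0 and 18.4 with both, a difference of -0.14 ± 0.08 (adjusted p = 0.24). UGGT1 stayed between 221.7 and 244.4 and EDEM3 between 95.3 and 102.0 in all 8 libraries.

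Translational efficiency was tested as the change in RPFs relative to the change in mRNA. With Tm, PDIA6 fell by 0.33 ± 0.12 (adjusted p = 0.091), 1 call among 7 members where 15.9% of all transcripts were called and 8.71% fell. Its log2 efficiency was -0.49 and -0.78 with Tm, below both untreated values. DNAJC10 was at -2.51 and -2.85 with Tm, a change of -0.35 ± 0.13 (adjusted p = 0.10) on the other side of the threshold. Without Tm replicate a, the nearer of these lysates to the untreated values, the change was -0.55. EDEM1, ERO1LB, TXNDC12 and EDEM3 had positive values that did not pass, at 0.40, 0.28, 0.28 and 0.25, with adjusted p of 0.25 to 0.41, and UGGT1 was at 0.02. The median of the 7 was 0.25 and that of all transcripts 0.00. The PDIA6 call was lost without Tm replicate b (-0.19, adjusted p = 0.52) and without either untreated replicate (adjusted p of 0.17 and 0.28).

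**Figure D4:**
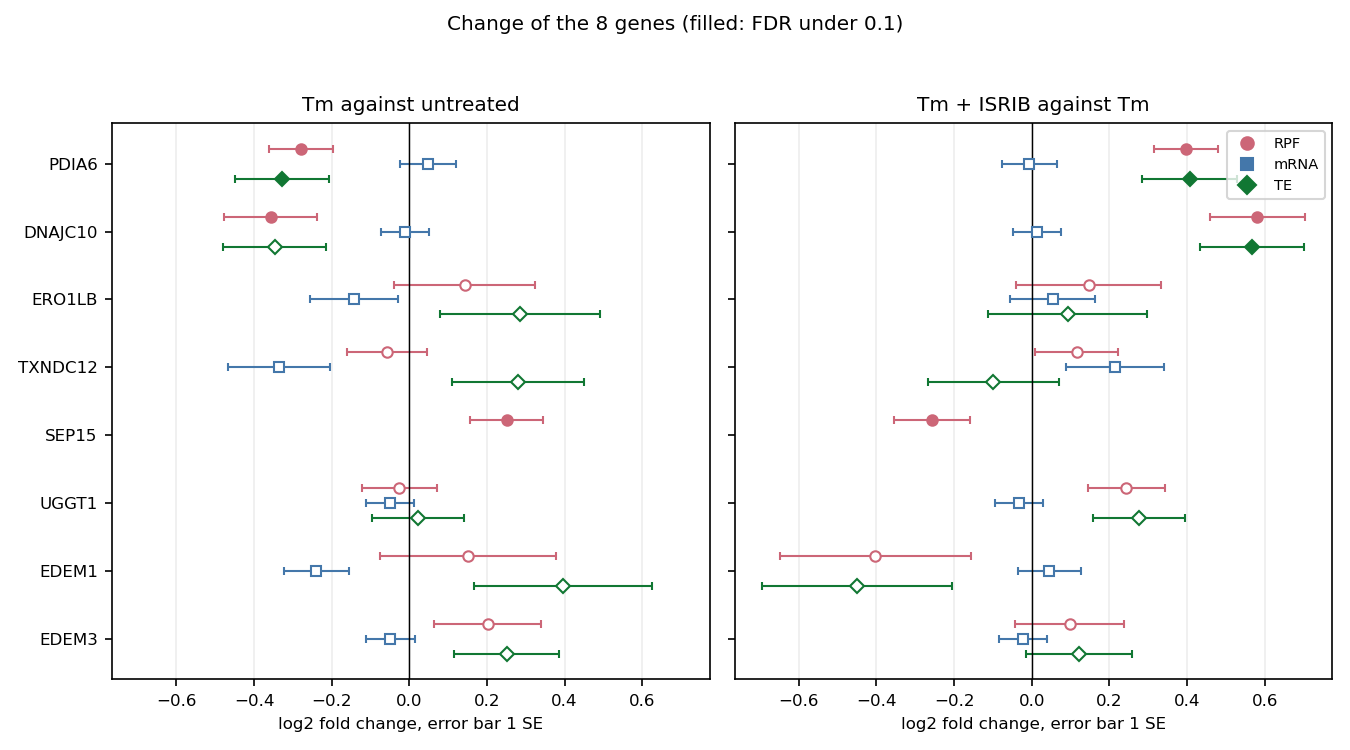
Log2 fold change of RPFs, mRNA and translational efficiency (TE) for the 8 genes, with Tm against untreated on the left and Tm + ISRIB against Tm on the right; bars are 1 SE and filled symbols have an adjusted p below 0.1. RPF and TE of PDIA6 and DNAJC10 lie below 0 on the left and above 0 on the right with mRNA near 0; SEP15 has RPFs only.

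Against Tm alone, the efficiency rose with Tm and ISRIB, in DNAJC10 by 0.57 ± 0.13 (adjusted p = 0.025) and in PDIA6 by 0.41 ± 0.12 (adjusted p = 0.075). These were 2 of 7 members, beside 6.11% of all transcripts and 3.68% that rose. The Tm lysates are those of Tm against untreated, so the 2 comparisons are not independent. DNAJC10 was at -2.12 and -2.04 in lysates with both compounds and PDIA6 at -0.17 and -0.27, above their Tm lysates in each case. Without Tm replicate b the values were 0.43 (adjusted p = 0.30) and 0.27 (0.53), and neither call was kept without replicate a or b of Tm with ISRIB. UGGT1 was at 0.28 ± 0.12 (adjusted p = 0.23) and EDEM1 at -0.45 ± 0.24 (0.36).

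With Tm and ISRIB against untreated, EDEM3, a mannosidase that marks glycoproteins for ERAD, was 1 of 7 members called in efficiency, where 8.96% of all transcripts were called. It was at -1.55 and -1.69 in these lysates, above all others, and the change was 0.37 ± 0.12 (adjusted p = 0.089). With the lysate as a block, which pairs the assays, it was 0.37 with an adjusted p of 0.12, and the call was lost without any of the 4 libraries compared (adjusted p between 0.17 and 0.53). ERO1LB was at 0.38 ± 0.18 (adjusted p = 0.24) and UGGT1 at 0.30 ± 0.11 (0.13). Without untreated replicate a, the higher of its untreated lysates, UGGT1 was at 0.46. ISRIB alone gave 0 of 7 calls (background 0.191%), and 0 by DESeq2, which called 41 of 10970 transcripts. With ISRIB alone, 0 were at an unadjusted p below 0.05, and values ran from -0.06 in UGGT1 to 0.28 in TXNDC12.

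A further 20 genes of the same pathways were taken from the part of the symbol list that could be read, 9 of glycosylation and folding, 9 of degradation and the stress sensors ATF6 and EIF2AK3 (PERK). All 20 were tested in RPFs and 16 in mRNA and efficiency. With Tm, 1 of 20 rose and 2 fell in RPFs, where 13.5% of all transcripts were called, and against Tm alone 3 rose and 1 fell with ISRIB added, where 17.7% were. The medians were -0.07 and 0.08, beside -0.01 and 0.00 for all transcripts. In efficiency 1 of 16 rose and 3 fell with Tm (background 15.9%), and 2 rose and 1 fell when ISRIB was added (6.11%). In mRNA 2 of 16 rose with Tm and 0 fell (11%). The counts in RPFs and mRNA were near the share of all transcripts.

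The calls came from 4 genes. DDOST, a subunit of the oligosaccharyltransferase that attaches glycans, had 408.1 and 390.5 RPF CPM untreated, 332.3 and 259.7 with Tm, and 505.3 and 429.6 with both compounds. Its Tm libraries were the lowest and the libraries with both were the highest. Its RPFs fell by 0.42 ± 0.09 with Tm (adjusted p = 0.0020) and rose by 0.65 ± 0.09 with ISRIB added (adjusted p = 5.1e-06). Its mRNA rose from 249.4 and 258.2 CPM to 332.0 and 304.9 with Tm, a change of 0.33 ± 0.08 (adjusted p = 0.051), and its efficiency fell by 0.75 ± 0.14 (adjusted p = 0.0021). The mRNA call was lost without any of the 4 libraries compared, at adjusted p between 0.18 and 0.32.

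MOGS, the glucosidase that trims the first glucose from a newly attached glycan, had 58.3 and 66.6 RPF CPM untreated, 47.4 and 45.1 with Tm, and 60.9 and 62.1 with both. Its RPFs fell by 0.43 ± 0.11 (adjusted p = 0.011) and its efficiency by 0.56 ± 0.12 (0.0066). OST4, a very short subunit of the same oligosaccharyltransferase with 18 counted codons, went the other way, with 27.8 and 20.9 RPF CPM untreated, 42.8 and 46.7 with Tm, and 25.8 and 24.7 with both. Its RPFs rose by 0.89 ± 0.14 with Tm (adjusted p = 5.1e-05) and its efficiency by 0.91 ± 0.22 (0.014). Subunits of 1 complex thus had footprint changes of opposite sign, and STT3B, a catalytic subunit, was at 0.06 ± 0.08.

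AUP1, which recruits ubiquitin-conjugating enzymes to the ER, differed from these 3 in that its RPF change with Tm, -0.18 ± 0.11 (adjusted p = 0.33), was not called. Its mRNA rose from 115.9 and 101.9 CPM to 149.5 and 138.6 (0.40 ± 0.08, adjusted p = 0.035), and its efficiency fell by 0.58 ± 0.13 (0.0086). The mRNA was 137.5 and 122.6 CPM with ISRIB alone, also above the untreated libraries, and the call with Tm was lost without untreated replicate b (adjusted p = 0.30), Tm replicate a (0.28) or Tm replicate b (0.18). It was the 1 gene of 9 in the degradation list that rose in RPFs when ISRIB was added, by 0.31 ± 0.11 (adjusted p = 0.069). ATF6 was at 0.02 ± 0.09 and EIF2AK3 at -0.13 ± 0.25 in RPFs with Tm.

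**Figure D5:**
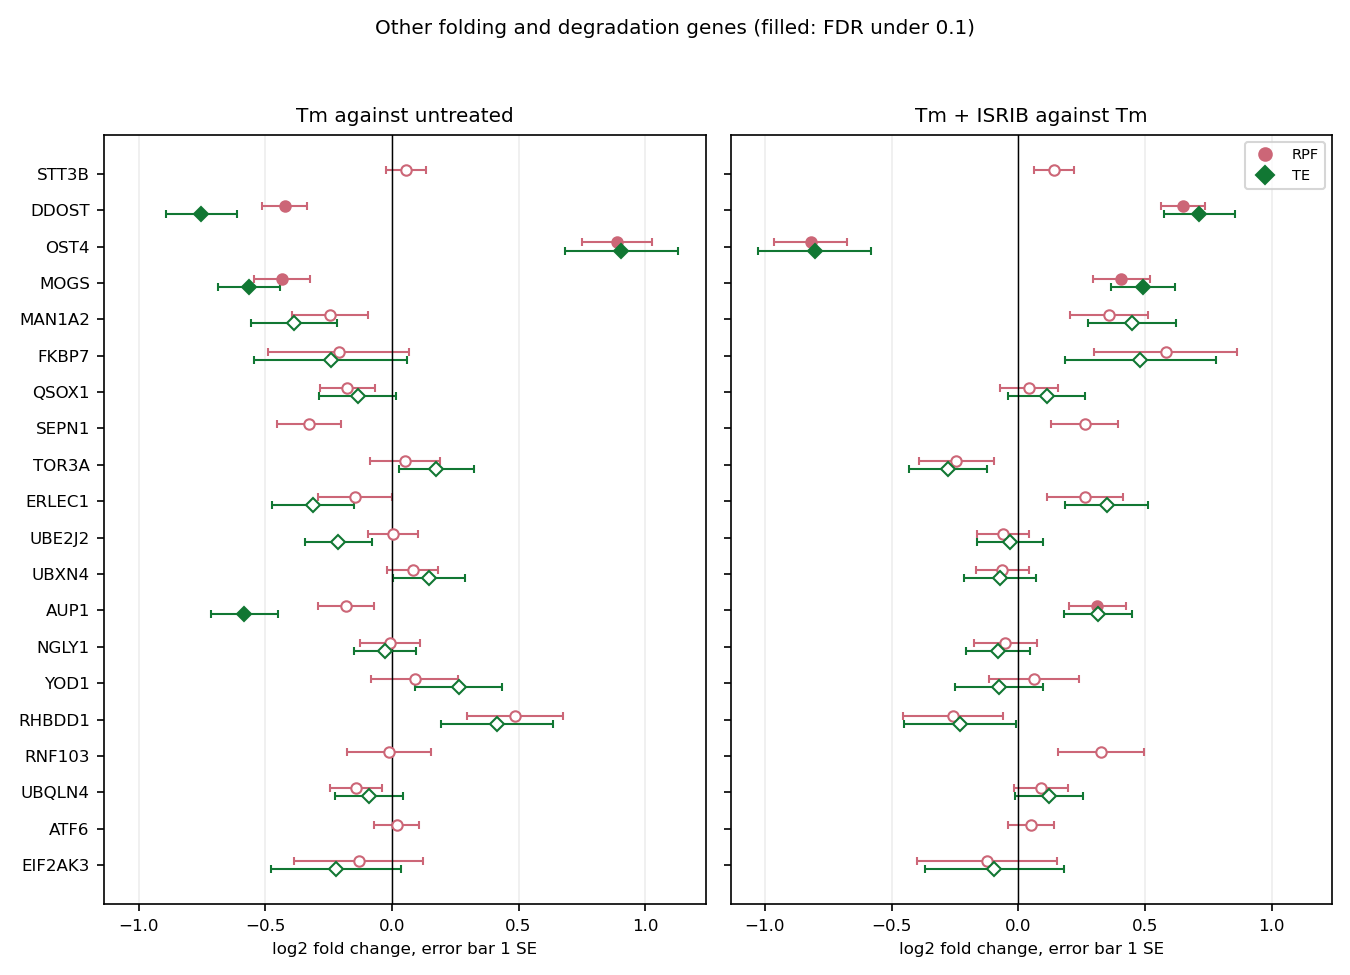
Log2 fold change of RPFs and translational efficiency (TE) of the 20 further folding and degradation genes, with Tm against untreated on the left and Tm + ISRIB against Tm on the right; bars are 1 SE and filled symbols have an adjusted p below 0.1. DDOST, MOGS and OST4 stand out on both sides with opposite signs, and AUP1 is filled in TE on the left and in RPFs on the right.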

How the data were processed

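HEK293T cells in 4 treatments with 2 biological replicates each were measured by Ribo-Seq and mRNA-Seq. For each library the authors deposited unnormalized counts of the reads that fell on each coding sequence, under UCSC identifiers. The counted stretch is 20 codons shorter than the annotated coding sequence, stop codon included. The submitters' processing notes name CASAVA 1.8, Bowtie 1.0.0, TopHat2 2.0.10 and 2.0.7 and the build hg19, and the counting tool and annotation are not given in the sources used here. How reads shared by isoforms or gene copies were assigned is likewise not given.

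Ribo-Seq listed 21520 coding transcripts, of which 19938 had the same identifier in mRNA-Seq and the 19044 of equal length were joined. Gene symbols were matched through the 1998 rows of the study's source data that could be read, and SEP15, whose symbol is stored there as a date, by its description. Positions and start sites come from GENCODE v29 on GRCh38 and promoters from RefSeq, not from the authors' files.

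Transcripts were kept by filterByExpr with at least 10 counts in both assays (10970), or in Ribo-Seq alone for SEP15 and other unjoined genes (12242). RPFs and mRNA were fitted over the 8 libraries of each assay and efficiency as the interaction of treatment and assay over all 16, with TMM factors and the quasi-likelihood functions of edgeR 4.0.16 under R 4.3.3 (glmQLFit, glmQLFTest), and DESeq2 1.42.0 as an alternative. Adjustment was by Benjamini-Hochberg over all transcripts of a fit, at 0.1. The SE was obtained as the size of the log2 fold change over the root of the F statistic. The p-values rest on the spread between biological replicates pooled over the 4 treatments and moderated across transcripts, not on the replicates compared alone. The main efficiency fit took both libraries of a lysate as independent, and the lysate block pairs them. The common biological coefficient of variation was 5.62% in RPFs and 6.7% in mRNA. PCR copies cannot be told from separate fragments. The scripts were tested on simulated counts. Figures were drawn with matplotlib 3.10.9 and tables joined with pandas 2.3.3 in Python 3.11.15.

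The members and the lists of further genes were chosen with earlier results of these data known. The text names all 8 members in every comparison, those of the 20 further genes that were called in any comparison, and ATF4 as a reference. STT3B, ATF6 and EIF2AK3 fall outside this rule and were named after their values were seen.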

Additional observations from a re-analysis of the deposited data

Results flagged for a closer look

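Among 22 sets of 4 libraries tested for a single library far from the rest, 2 were picked out, and chance picks out about 1 in 20. In mRNA, EDEM3 was at 98.5 CPM in Tm replicate a, above the other 3 libraries with Tm (95.3 to 95.6). UGGT1 was at 221.7 CPM in replicate a of Tm with ISRIB, below the other 3 (232.5 to 233.0).

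The effect of Tm with ISRIB present minus its effect without ISRIB, a difference of log2 fold changes tested by edgeR's quasi-likelihood test, passed an adjusted p of 0.1 for several genes. In RPFs it was 0.36 for PDIA6 (adjusted p = 0.070), 0.53 for DNAJC10 (0.063), 0.74 for DDOST (4.8e-04), 0.57 for MOGS (0.032), -1.01 for OST4 (0.0037) and -2.25 for ATF4 (1.7e-10). In translational efficiency it was 0.97 for DDOST (0.045), 0.76 for MOGS (0.051), -1.43 for OST4 (0.051) and -2.23 for ATF4 (2.4e-05). The fit calls 6.9% of all transcripts in RPFs and 1.39% in efficiency. Libraries with ISRIB alone enter this difference. Their mean log2 efficiency, beside the untreated one, was 0.38 and 0.62 for DDOST, -0.60 and -0.34 for MOGS. It was 1.11 and 0.44 for OST4, and -4.15 and -3.50 for ATF4. With ISRIB alone, 0 of the 16 further genes tested were called in efficiency.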

How the results depend on the processing

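Over 188 results for single genes and 2241 alternative values, 0 changed sign while called and 1989 kept their direction and side of the threshold. A call was lost in 122 and gained in 25, and 105 changed sign with no call on either side. Most of these results were not called in the main fit, and the untreated efficiencies among them have no threshold. Calls of members between treatments were kept in 4 of 12 other analyses for EDEM3 (efficiency with Tm and ISRIB against untreated). At the other end, 12 of 12 kept those of DNAJC10 and PDIA6 in RPFs with ISRIB added to Tm. DESeq2 gave no adjusted p for 23 further values of EDEM1, EDEM3, ERO1LB, TXNDC12 and OST4, which are left out. In what follows, brackets hold the calls over all transcripts in the same fit, of 10970 where no total is given. The number of members called was 3 of 8 for RPFs with Tm (1485), and DESeq2 called 1 (744). For RPFs with ISRIB added to Tm it was 3 (1945), and it became 2 with DESeq2 (1002). It became 4 with a minimum of 50 counts (1924 of 8771), only the groups compared (2208 of 10773) or the replicate block (2001). For efficiency with Tm it was 1 of 7 (1746), and it became 0 with DESeq2 (1204), DESeq2's size factors (1753) or total counts (1945). It became 2 with a minimum of 50 counts (1769 of 8771) or only the groups compared (2253 of 10826). For efficiency with ISRIB added to Tm it was 2 (670), and 1 with total counts (642). For efficiency with Tm and ISRIB against untreated it was 1 (983). It became 0 with DESeq2 (610), the lysate block (957), no filter (994 of 14187) or only the groups compared (1307 of 10990). It became 2 with total counts (1043). For mRNA with Tm it was 0 (1209), and it became 1 with a minimum of 50 counts (1223 of 8771) or total counts (1133). It became 2 with only the groups compared (3152 of 10826). For mRNA with Tm and ISRIB against untreated it was 0 (1558), and 1 with total counts (1608). For 4 mRNA libraries with Tm against 4 it was 1 (2453), and 0 with DESeq2 (1382) or no filter (2600 of 14187).

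Leaving out 1 library pair at a time gave 0 to 2 members called in RPFs with Tm, 0 to 1 with Tm and ISRIB against untreated and 2 to 3 with ISRIB added to Tm. In efficiency it gave 0 to 2 with Tm, 0 to 2 with ISRIB added and 0 to 1 against untreated, and in mRNA 0 to 2 for 4 libraries against 4. The lone library left was assumed to vary like the other groups, and calls over all transcripts fell too, for efficiency with ISRIB added from 670 to between 71 and 194. DESeq2 called 744 transcripts in RPFs with Tm where edgeR called 1485, and 1002 with ISRIB added where edgeR called 1945.

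What libraries with the same replicate letter share across treatments is not given. The deviations of same-letter libraries correlated between -0.24 and 0.52, highest for ISRIB with Tm + ISRIB in mRNA-Seq. With the letter as a replicate block, 2 members were called in efficiency with Tm, 2 in efficiency with Tm and ISRIB against untreated, 1 in mRNA with Tm and 4 in RPFs with ISRIB added to Tm (UGGT1 gained). In the same order, 1972, 1223, 1780 and 2001 of 10970 transcripts were called with the block, and 1746, 983, 1209 and 1945 without it. SEP15 lost its RPF call with Tm (adjusted p = 0.11) and also with no filter (0.13), DESeq2 (0.19) or only the groups compared (0.14). DNAJC10 lost its RPF call with Tm with total counts (0.12) or DESeq2 (0.16). Depth limits EDEM1 and ERO1LB most, with RPF counts down to 30.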
